A study of Mus musculus with 4 samples.

Results

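Endothelial genes of blood vessels and of the liver sinusoids were described in 4 bulk RNA libraries of mouse liver tumours. The 35 genes were taken from a fixed list of symbols, out of 48526 gene identifiers in the count tables, and all 35 were found by symbol. Of these, 27 are genes of continuous vessels or of endothelium in general, 7 are genes of liver sinusoidal endothelium, and 1 is Prox1os, an antisense RNA at the locus of the lymphatic regulator Prox1. All animals were C57BL/6 mice whose liver received an orthotopic implant of RIL-175, a hepatoma line of mouse that here carried luciferase, after 2 weeks on a methionine- and choline-deficient (MCD) diet that produces fatty liver. The AKK group (AKK 1 and AKK 2) was fed 5000000000 colony-forming units of the gut bacterium Akkermansia muciniphila, from 2 weeks before the diet until the end of the experiment with a pause of 6 days after surgery. The PBS group (PBS 1 and PBS 2) received phosphate-buffered saline instead. Both groups carried the same tumour line and the same diet, so no library stands for a tumour-free liver. The labels call the 2 libraries of a group biological replicates without stating that they came from separate mice, and give neither age nor sex, so the p-values reflect library-to-library spread, which may be technical.

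Endothelial cells line all blood vessels and are joined by VE-cadherin, claudin-5 and related junction proteins. Their growth is driven by vascular endothelial growth factor (VEGF) receptors, and their quiescence is held by angiopoietin signals through the Tie receptors. The sinusoids of the liver are lined by a fenestrated endothelium without a continuous basement membrane, which clears molecules from the blood through scavenger and lectin receptors. Vessels of liver tumours often resemble continuous capillaries more than sinusoids. In bulk tissue, fewer cells of a type and less RNA per cell cannot be told apart.

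The libraries held 48912489 to 59027227 reads on genes, of which 26671 to 50685 fell on the 35 members. Marker transcripts of other cell types also differed between the libraries. Values are in CPM, the reads of a gene relative to all reads on genes after TMM scaling. Albumin (Alb), a hepatocyte gene, stood at 0.300 and 0.988 CPM in the PBS tumours against 156 and 25.4 CPM in AKK 1 and AKK 2. The 9 skeletal muscle markers summed to 268.5 CPM in PBS 1 and 9.59 CPM in PBS 2, against 3.06 and 3.01 CPM in the AKK libraries. PBS and AKK tables are named by different schemes. Should the schemes stand for cohorts, the effect of cohort cannot be told apart from that of feeding.

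The comparison asked whether endothelial transcripts differ between tumours of AKK and PBS mice, and whether sinusoidal genes follow the genes of continuous vessels. Most continuous-vessel genes lay lower in both AKK tumours, led by von Willebrand factor (Vwf, 10.9-fold lower) and claudin-5 (Cldn5, 6.87-fold lower), whereas endoglin, angiopoietin-2, apelin and Sox17 overlapped between the groups. The median log2 fold change (AKK minus PBS) was -0.84 over the 27 continuous-vessel members, -0.35 over the 6 sinusoidal members that passed the filter on low counts, and 0.02 over all 17479 genes tested. Both AKK libraries lay below both PBS libraries in 19 of 27 continuous-vessel members and 3 of 6 sinusoidal members, against 24.7% of all genes tested. They lay above both in 0 of these 33 members, against 26.7% of all genes.

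No member passed edgeR's quasi-likelihood test at a Benjamini-Hochberg adjusted p of 0.05 over all genes, a threshold that 0.00572% of genes passed (1 gene). At an unadjusted p under 0.05 in edgeR, 11 members were lower, all of them continuous-vessel genes, against 8.62% of all genes, and 0 were higher, against 6.70%. DESeq2 called 8 members lower, all of continuous vessels, against 3.04% of genes, and 0 higher, against 2.08%, and limma-voom called 0. The 8 were Vwf, Cldn5, Cdh5, Flt4, Ptprb, Pecam1, Tie1 and Aplnr. With 2 libraries per group an exact two-sided permutation test of a single gene cannot go below p = 0.333. The list was drawn up with earlier results of these data known, so its counts are a description.

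**Figure D1:**
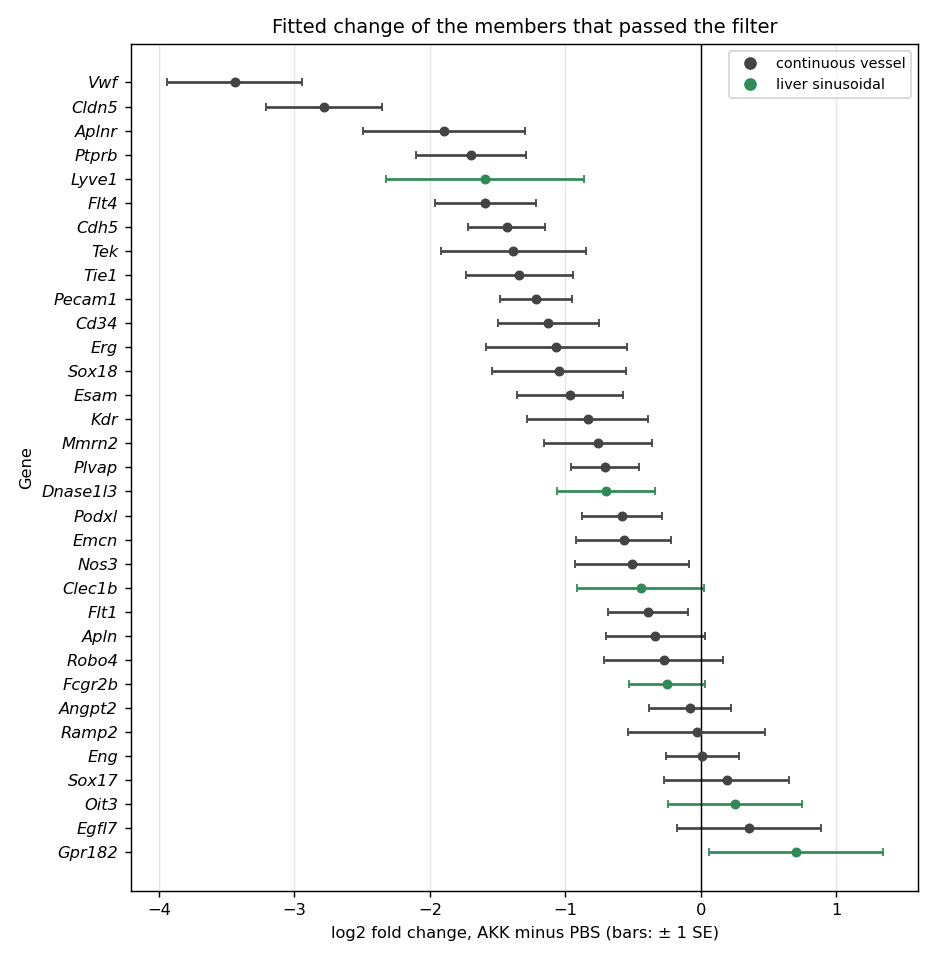
Fitted log2 fold change (AKK minus PBS, x axis) of the 33 members that passed the filter, one row per gene, with bars of 1 standard error. Vwf (-3.44) and Cldn5 (-2.78) lie farthest to the left, 28 of 33 members are negative, and the 6 sinusoidal genes in green lie between -1.59 (Lyve1) and 0.70 (Gpr182).

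In all 4 junction genes both AKK libraries lay below both PBS libraries, as in 24.7% of all genes, and 0 of the 4 passed edgeR's test (smallest adjusted p = 0.182). Claudin-5 (Cldn5, ENSMUSG00000041378.1), a tight junction protein of endothelium, read 5.30 and 6.48 CPM in the PBS pair and 0.991 and 0.719 CPM in AKK 1 and AKK 2. Its fitted log2 fold change was -2.78 (SE 0.43, n = 2 per group, edgeR adjusted p = 0.182, DESeq2 adjusted p = 5.97e-08). The groups were far apart, and the PBS pair was close. VE-cadherin (Cdh5, ENSMUSG00000031871.9), the adherens junction protein that defines endothelium, read 24.3 and 16.7 CPM against 7.45 and 7.76 CPM (log2 fold change -1.43, SE 0.29, edgeR adjusted p = 0.182). Pecam1, the adhesion molecule CD31, read 28.6 and 19.9 CPM against 10.3 and 10.6 CPM (-1.22, SE 0.27, edgeR adjusted p = 0.188). Both genes were nearly equal in the AKK pair and differed by 1.45-fold and 1.44-fold between the PBS libraries, less than the gap to AKK. Esam, an immunoglobulin-like adhesion molecule of endothelial contacts, read 6.73 and 4.84 against 3.34 and 2.59 CPM, again without overlap.

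The promoter windows of 16 members were matched by symbol in a RefSeq table on GRCm38.p6, and the 250 bases before the start were searched. Windows of 5 are shown because they set the member of strongest change among those matched (Cldn5) beside surface genes that were lower in AKK (Cd34, Emcn), an angiogenic ligand whose groups overlapped (Apln) and a sinusoidal gene read only in AKK (Clec4g). Capitals mark matches of the motifs searched on both strands: CCGGAAG and CAGGAAG of ETS factors, AACAAAG and AACAATG of SOX factors, AGATAAG of GATA factors and TGTTTAC of forkhead factors. The windows, 5′ to 3′ on the gene's strand, are Cldn5 at chr16:18776597-18776846, plus strand; Cd34 at chr1:194938571-194938820, plus strand; Emcn at chr3:137340828-137341077, plus strand; Apln at chrX:48034854-48035103, minus strand; and Clec4g at chr8:3720652-3720901, minus strand.
Cldn5: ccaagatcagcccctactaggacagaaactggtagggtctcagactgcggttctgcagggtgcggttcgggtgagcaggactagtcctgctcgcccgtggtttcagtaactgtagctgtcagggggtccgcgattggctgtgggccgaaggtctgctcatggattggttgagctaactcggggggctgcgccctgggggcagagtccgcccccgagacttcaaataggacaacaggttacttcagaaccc
Cd34: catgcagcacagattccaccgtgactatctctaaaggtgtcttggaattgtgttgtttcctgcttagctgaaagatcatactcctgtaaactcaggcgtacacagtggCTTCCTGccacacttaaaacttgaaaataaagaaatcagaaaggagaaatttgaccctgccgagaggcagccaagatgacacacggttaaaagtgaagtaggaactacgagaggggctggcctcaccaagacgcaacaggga
Emcn: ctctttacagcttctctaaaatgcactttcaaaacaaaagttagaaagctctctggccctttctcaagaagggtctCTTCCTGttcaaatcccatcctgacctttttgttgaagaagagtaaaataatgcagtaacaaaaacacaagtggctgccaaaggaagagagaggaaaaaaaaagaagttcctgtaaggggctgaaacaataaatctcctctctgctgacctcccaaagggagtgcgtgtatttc
Apln: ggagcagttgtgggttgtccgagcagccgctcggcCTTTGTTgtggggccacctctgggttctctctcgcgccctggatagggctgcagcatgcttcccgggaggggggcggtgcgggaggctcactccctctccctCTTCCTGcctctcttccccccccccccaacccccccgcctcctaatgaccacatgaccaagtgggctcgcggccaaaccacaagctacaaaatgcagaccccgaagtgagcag
Clec4g: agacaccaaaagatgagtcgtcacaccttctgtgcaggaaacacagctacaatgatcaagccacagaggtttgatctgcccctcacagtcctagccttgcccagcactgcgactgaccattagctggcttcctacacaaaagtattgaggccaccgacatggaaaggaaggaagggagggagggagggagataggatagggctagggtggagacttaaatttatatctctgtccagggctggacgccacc
CAGGAAG was found in the windows of 6 of the 16 members (Apln, Cd34, Egfl7, Emcn, Erg and Robo4), against 10.8% of the 32851 windows in the table. CCGGAAG was in 0 of 16 (6.91% of all windows) and the forkhead motif in 0 (3.17%). AACAAAG was in those of Apln and Tek (5.03%), AACAATG in that of Erg (3.29%) and AGATAAG in that of Erg (2.74%). The window of Cldn5 held no match, and members with CAGGAAG were found both among the genes lower in AKK and among those that overlapped. Egfl7 and Erg each had more than 1 window, and a match in any was counted. Members with no window in the table were Pecam1, Cdh5, Esam, Ptprb, Angpt2, Aplnr, Sox17, Sox18, Podxl, Plvap, Vwf, Mmrn2, Nos3, Ramp2, Lyve1, Dnase1l3, Oit3, Gpr182 and Prox1os.

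The 3 VEGF receptors differed among themselves. Flt4 (VEGF receptor 3, a receptor of lymphatic and sprouting vessels) read 9.60 and 6.50 CPM in PBS tumours against 2.80 and 2.55 CPM in AKK (log2 fold change -1.59, SE 0.38, edgeR adjusted p = 0.199, DESeq2 adjusted p = 0.00202). Kdr (VEGF receptor 2, the main signalling receptor) read 10.2 and 5.45 against 3.47 and 5.31 CPM, so that AKK 2 came close to PBS 2. Flt1 (VEGF receptor 1, which also acts as a decoy for ligand) read 296 and 189.9 against 156 and 216 CPM, with AKK 2 above PBS 2. Its fitted difference of -0.39 (SE 0.30, edgeR adjusted p = 0.547) was about the size of its error. Per kilobase of merged exons, Flt1 stood at 21.9, 14.1, 11.6 and 15.96 CPM per kb in PBS 1, PBS 2, AKK 1 and AKK 2, against 1.13, 0.603, 0.384 and 0.588 for Kdr.

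Among ligands and partners of these receptors, listed by function, 0 of 7 passed edgeR's test in either direction. At an unadjusted p under 0.05 in edgeR, 1 was lower (Nrp2) and 0 were higher, against 8.62% and 6.70% of all genes. The VEGF co-receptor Nrp2 read 70.3 and 47.2 CPM in PBS tumours against 20.3 and 38.5 in AKK (means 58.8 and 29.4 CPM, SE 0.36 on the log2 scale, edgeR adjusted p = 0.297), and the ligand Vegfb 37.6 and 48.6 against 85.4 and 51.3 CPM (0.67, SE 0.29, edgeR adjusted p = 0.350). For Vegfb both AKK libraries lay above both PBS libraries, as in 26.7% of all genes, and for Nrp2 below both, as in 24.7%. Nrp2 and Vegfb were named for the smallest p of their list, so this separation is no further result. The median of the 7 genes was 0.25.

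In the Tie system both AKK libraries lay below both PBS libraries in 3 of 4 members, the receptors and Ptprb, against 24.7% of all genes. The ligands did not lie lower in this way, and 0 of the 4 members passed edgeR's test. Ptprb, the phosphatase VE-PTP that acts on the angiopoietin receptor and on VE-cadherin, read 78.1 and 57.7 CPM in PBS tumours against 13.005 and 28.9 CPM in AKK (log2 fold change -1.70, SE 0.40, edgeR adjusted p = 0.202, DESeq2 adjusted p = 0.00355). AKK 1 was the lowest library by a wide margin. The angiopoietin receptor Tek (Tie2) read 2.23 and 1.18 against 0.602 and 0.702 CPM, and its co-receptor Tie1 9.99 and 5.97 against 3.31 and 2.997 CPM (-1.34, SE 0.40, edgeR adjusted p = 0.248). Neither overlapped between groups. Angpt2, the angiopoietin released by activated endothelium, read 22.5 and 16.5 against 22.3 and 14.6 CPM, so the spread inside each group exceeded the difference of -0.08 (SE 0.30, edgeR adjusted p = 0.915). Angpt1, the other Tie2 ligand and no member, read 2.92 and 1.03 against 3.87 and 3.34 CPM, above both PBS libraries in AKK (0.86, edgeR unadjusted p = 0.189).

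The apelin pair split in the same way, with both AKK libraries below both PBS libraries in 1 of 2 members, against 24.7% of all genes. The receptor gene Aplnr read 5.32 and 2.02 CPM in PBS tumours against 1.10 and 0.873 CPM in AKK (log2 fold change -1.90, SE 0.60, edgeR adjusted p = 0.259, DESeq2 adjusted p = 0.0457). PBS 1 stood 2.64-fold above PBS 2, and without PBS 1 the fitted value was -1.04. The ligand Apln, which sprouting tip cells make, read 17.8 and 13.8 against 16.3 and 8.72 CPM, with AKK 1 above PBS 2.

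Of the 3 transcription factors, 2 (Erg and Sox18) were lower in both AKK libraries, against 24.7% of all genes, and Sox17 was not. Erg, an ETS factor that maintains endothelial identity, read 3.21 and 1.81 CPM against 1.45 and 0.942 CPM. Sox18 read 3.36 and 2.02 against 1.52 and 1.08 CPM, and Sox17, a factor of arterial endothelium, 1.09 and 0.988 against 1.31 and 1.06 CPM. The fitted values were -1.07 (SE 0.52), -1.05 (SE 0.49) and 0.19 (SE 0.46), so the Sox17 value lay within its error of 0.

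The 6 surface glycoproteins ranged from lower to even. Cd34, a sialomucin of capillary endothelium, read 11.7 and 7.32 CPM in PBS tumours against 3.87 and 4.83 CPM in AKK (log2 fold change -1.13, SE 0.37, edgeR adjusted p = 0.274). Plvap, which forms the diaphragms of fenestrae and caveolae, read 13.8 and 15.5 against 9.11 and 8.82 CPM (-0.71, SE 0.25, edgeR adjusted p = 0.292), with close replicates in both groups. Endomucin (Emcn) read 5.81 and 4.96 against 3.64 and 3.61 CPM. These 3 genes did not overlap between groups. Podocalyxin (Podxl) read 272 and 183.8 against 124 and 181.1 CPM, so PBS 2 and AKK 2 were nearly level. The guidance receptor Robo4 read 4.67 and 2.63 against 3.06 and 2.98 CPM, and endoglin (Eng), a co-receptor of the TGF-beta family, 17.3 and 12.3 against 14.1 and 15.8 CPM. Both overlapped, so 4 of the 6 lay below both PBS libraries in AKK, against 24.7% of all genes. For Eng the fitted value was 0.01 (SE 0.27).

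Vwf was the member that differed most. Von Willebrand factor (Vwf, ENSMUSG00000001930.17), the endothelial protein that tethers platelets, read 15.0 and 11.6 CPM in the PBS pair, with 0.743 and 1.70 CPM in AKK 1 and AKK 2. The log2 fold change was -3.44 (SE 0.50, n = 2 per group, edgeR adjusted p = 0.182, DESeq2 adjusted p = 3.42e-10). The groups were far apart, with the PBS pair close together. Of the other secreted or enzymatic members, Mmrn2, a matrix protein of endothelium, read 4.22 and 3.32 against 2.11 and 2.35 CPM, and the nitric oxide synthase Nos3 4.24 and 3.30 against 3.17 and 2.14 CPM. Ramp2, the partner of the adrenomedullin receptor, read 2.36 and 1.56 against 2.44 and 1.40 CPM. The secreted factor Egfl7 read 4.80 and 4.04 against 8.25 and 3.08 CPM, so the AKK libraries lay on either side of the PBS pair. Nos3 shares its locus with reads of the opposite strand, which made up 43.5% of its strand-assigned reads over the 4 libraries.

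**Figure D2:**
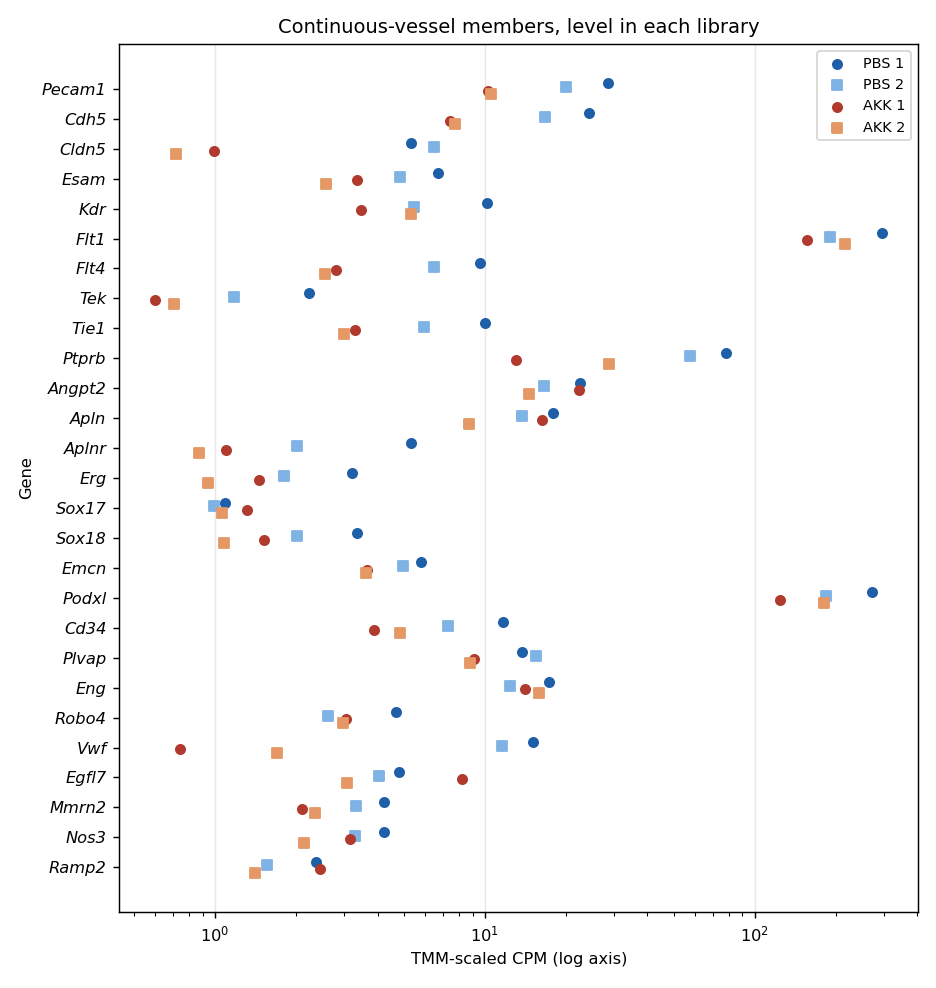
TMM-scaled CPM (log axis) of the 27 continuous-vessel members in each of the 4 libraries, one row per gene. Cldn5 and Vwf show the widest gap between blue PBS and red or orange AKK points, and Flt1 and Podxl stand at the highest CPM.

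Levels between genes were compared per kilobase of merged exons. In the PBS group Podxl (41.5 CPM per kb on average) and Flt1 (18.0) were the highest members, followed by Fcgr2b (7.42), Plvap (7.37) and Angpt2 (5.28). Fcgr2b thus stood high although it is listed with the sinusoidal genes. Cdh5 (4.88) and Pecam1 (3.90) stood below Podxl and Flt1. Which cells carried the reads of these genes was not tested. Podxl (27.8), Flt1 (13.8) and Fcgr2b (6.25) were also the first 3 in AKK. Ptprb moved from rank 6 to rank 11, Cldn5 from 9 to 19 and Vwf from 25 to 35, the last place by the group mean. In AKK 2 alone Vwf (0.1055 CPM per kb) stood above Gpr182, Clec4g and Prox1os. Eng moved from 11 to 7. Neighbours in the order such as Fcgr2b and Plvap in PBS overlapped between libraries (9.08 and 5.76 against 6.93 and 7.81 CPM per kb).

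The 7 sinusoidal members did not share a direction. They are called sinusoidal by the list, and whether other cells carried their reads was not tested. Lyve1, a hyaluronan receptor of sinusoidal and lymphatic endothelium, read 8.98 and 3.28 CPM in PBS tumours against 3.08 and 0.993 CPM in AKK (log2 fold change -1.59, SE 0.73, edgeR adjusted p = 0.363). PBS 2 and AKK 1 were nearly level, and the libraries of each group differed by about as much as the groups. Dnase1l3, a secreted DNase, read 4.89 and 5.74 against 3.41 and 3.13 CPM (-0.70, SE 0.36, edgeR adjusted p = 0.399), and Clec1b, the lectin receptor CLEC-2, 1.31 and 1.70 against 1.27 and 0.942 CPM. For Clec1b, PBS 1 and AKK 1 were nearly level. Fcgr2b, the inhibitory receptor for antibody complexes, read 52.6 and 33.3 against 40.7 and 31.6 CPM, and Oit3 1.05 and 1.47 against 1.82 and 1.18 CPM. The chemokine-binding receptor Gpr182 had 23 and 11 reads among PBS libraries and 41 and 21 in AKK, and 61.4% of its strand-assigned reads lay on the opposite strand. All 3 overlapped between groups.

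Clec4g and Prox1os did not pass the filter. Clec4g, the sinusoidal lectin LSECtin, had 0 and 0 reads among PBS libraries and 30 and 5 in AKK 1 and AKK 2. Counting 3 reads per library as the limit that 0 reads allow (0.0562 and 0.0631 CPM, counting error only), the mean of the AKK libraries (0.308 CPM) was at least 5.17-fold higher than PBS, mostly through AKK 1. With Clec4g at that bound the sinusoidal median was -0.25 in place of -0.35. Prox1os had 2 and 0 reads among PBS libraries and 14 and 1 in AKK, and 66.0% of its strand-assigned reads lay on the opposite strand, that of Prox1. Prox1 itself read 1.76 and 0.757 against 3.10 and 1.15 CPM.

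**Figure D3:**
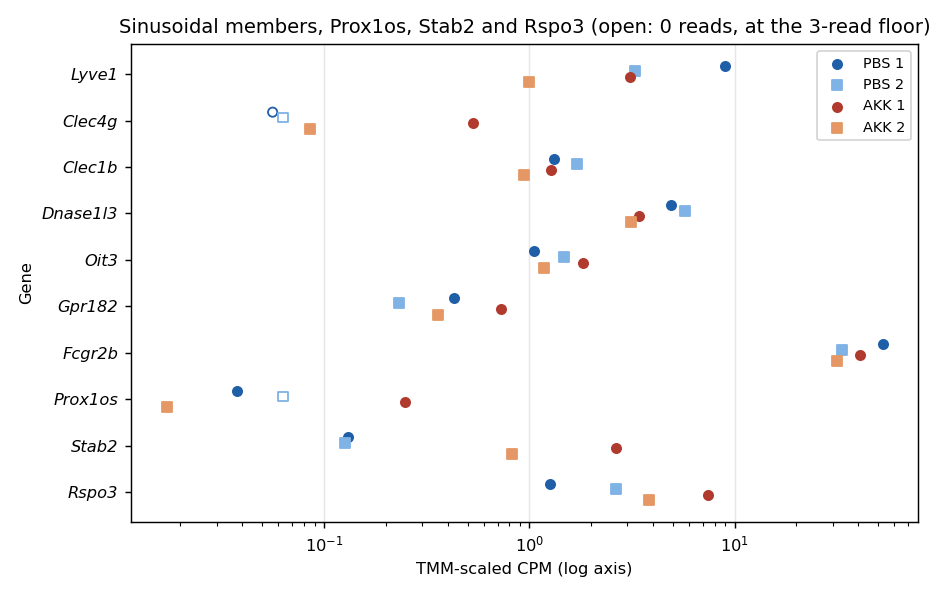
TMM-scaled CPM (log axis) of the 7 sinusoidal members, Prox1os, Stab2 and Rspo3 in each library, with open symbols for 0 reads drawn at the 3-read floor. Stab2, Rspo3 and Clec4g lie higher in both AKK libraries, while Lyve1 and Dnase1l3 lie lower.

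Other sinusoidal genes were listed by function. Of 14, 11 passed the filter, 0 passed edgeR's test, and 2 were higher and 0 lower at an unadjusted p under 0.05, against 6.70% and 8.62% of all genes. Among these, Stab2 passed the filter through its AKK libraries only and could only count as higher. Of the other 10, 1 was higher and 0 were lower. The scavenger receptor Stab2 had 7 and 6 reads among PBS libraries and 150 and 48 in AKK (0.131 and 0.126 against 2.65 and 0.822 CPM, log2 fold change 3.73, SE 0.78, edgeR adjusted p = 0.186, DESeq2 adjusted p = 0.00214). Rspo3, a Wnt co-agonist made by endothelium around the central vein, read 1.26 and 2.63 against 7.43 and 3.82 CPM (1.53, SE 0.56, edgeR adjusted p = 0.297). In all 3 of Clec4g, Stab2 and Rspo3, AKK 1 held more than AKK 2. AKK 1 also held more Alb and more Kupffer cell transcripts than AKK 2. Of 8 hepatocyte markers 7 lay higher in both AKK libraries, against 26.7% of all genes. The exception was Apob, at 241 and 584 CPM in PBS tumours against 164 and 468 CPM in AKK. Summed, the 8 stood at 246 and 596 against 659 and 589 CPM, a sum that Apob dominates in PBS. Kupffer cell markers summed to 1.69 and 0.547 CPM in PBS tumours against 18.9 and 2.93 CPM in AKK. Of these, 5 of 6 were higher in both AKK libraries, against 26.7% of all genes. Clec4f and Timd4 each had 1 and 0 reads in the PBS pair. Like Vsig4, Cd5l and the hepatocyte marker Cps1, they passed the filter through AKK only and could only count as higher. The part of these cells in the sinusoidal values was not tested.

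Further vessel genes were examined in the same way, again by lists of function. Over 92 such genes in 9 lists, 83 passed the filter, 0 passed edgeR's test, and 18 were lower and 7 higher at an unadjusted p under 0.05, against 8.62% and 6.70% of all genes, with a median of -0.04. DESeq2 called 12 lower and 4 higher, against 3.04% and 2.08%. Meox2, Stab2 and Tbx1 passed the filter through 1 group only, where neither library of the other group reached 0.182 CPM. Without them, 16 of 80 were lower and 6 higher in edgeR at an unadjusted p under 0.05, and 11 lower and 3 higher in DESeq2, so the share that was higher was near that of all genes. All 33 members that passed did so with at least 1 library in each group above this level.

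Partners of the angiopoietin, adrenomedullin, apelin and Slit systems held 4 genes lower at an unadjusted p under 0.05 in edgeR and 0 higher, of 10 that passed the filter, with the shares of all genes at 8.62% and 6.70%. Mmrn1, a multimerin of platelets and lymphatic endothelium, read 4.18 and 1.35 CPM against 0.212 and 0.103 CPM (log2 fold change -4.12, SE 0.80, edgeR adjusted p = 0.182). Cd93, a receptor of Mmrn2, read 29.8 and 21.7 against 14.4 and 12.4 CPM (-0.94, SE 0.25, edgeR adjusted p = 0.230). Other pan-endothelial genes held 2 lower and 1 higher of 14 at the same threshold, with a median of 0.11, the 2 lower being the adhesion receptors Adgrf5 (18.5 and 12.2 against 6.99 and 6.64 CPM) and Adgrl4 (6.30 and 3.64 against 1.04 and 1.71 CPM). In Mmrn1, Cd93, Adgrf5 and Adgrl4 every AKK library lay below every PBS library, as in 24.7% of all genes. They were named for the smallest p of their lists, so this separation is no further result. Thbd, the 1 pan-endothelial gene higher, read 10.9 and 16.4 CPM against 79.2 and 19.8 CPM.

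Notch and arterial genes held 3 lower and 0 higher of 10 at an unadjusted p under 0.05 (8.62% and 6.70% of all genes), while their median was 0.30. The tip cell ligand Dll4 read 41.6 and 23.5 CPM against 7.02 and 14.6 CPM (log2 fold change -1.59, SE 0.44, edgeR adjusted p = 0.240), and Efnb2, an ephrin of arteries, 349.9 and 341 against 185 and 233 CPM. Of 12 further transcription factors, 1 was lower and 2 were higher at this threshold, with a median of -0.29. Ets1 read 290.2 and 244 against 131 and 169 CPM, and Klf2, a factor induced by blood flow, 72.2 and 40.1 against 176 and 99.4 CPM (1.29, SE 0.39, edgeR adjusted p = 0.248). Both were separated between groups, in opposite directions, and both were named for the smallest p of their list.

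Genes of activated and inflamed vessels held 0 lower and 1 higher of 7, against 8.62% and 6.70% of all genes. P-selectin (Selp), which like Vwf is stored in endothelial granules and in platelets, read 10.7 and 9.99 CPM in PBS tumours against 76.9 and 26.9 CPM in AKK (log2 fold change 2.32, SE 0.49, edgeR adjusted p = 0.188, DESeq2 adjusted p = 0.000212). It was thus higher in both AKK libraries where Vwf was lower. The basement membrane gene Nid2 read 12.5 and 8.66 against 4.69 and 6.80 CPM. Platelet and megakaryocyte markers summed to 13.2 and 7.02 CPM in PBS and 12.1 and 7.04 CPM in AKK, with 4 of 8 below the filter. Of these sums, Pf4 held 9.11 and 3.01 CPM in PBS and 6.30 and 2.57 CPM in AKK. The part of platelets in the Vwf and Selp values was not tested.

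Among capillary genes of muscle and fat, 4 of 5 were lower and 0 higher at an unadjusted p under 0.05, against 8.62% and 6.70% of all genes, with a median of -0.94. These 5 leave out Meox2, which passed the filter through its PBS libraries only. The summed skeletal muscle markers stood at 268.5 and 9.59 CPM in PBS tumours against 3.06 and 3.01 CPM in AKK. PBS 1 exceeded PBS 2 in all 9 muscle markers, but in 3 of the 6 capillary genes that passed the filter, Meox2 included. The part of muscle in the capillary values was not tested. Meox2, a homeobox gene of muscle capillaries, had 53 and 21 reads among PBS libraries and 0 and 0 in AKK. Against a limit of 3 reads per library it was at least 13.7-fold lower, and at least 8.45-fold lower without PBS 1. The fatty acid binding protein Fabp5 read 26.5 and 32.2 against 16.6 and 13.9 CPM (log2 fold change -0.94, SE 0.23, edgeR adjusted p = 0.206). Lymphatic genes held 1 lower and 1 higher of 5 that passed the filter other than through 1 group, against 8.62% and 6.70% of all genes. Reelin (Reln) read 17.4 and 3.55 CPM against 1.95 and 1.95 CPM, so most of its difference lay in PBS 1, and Tbx1, which passed through its PBS libraries, had 28 and 20 reads against 4 and 8.

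Relative to Pecam1 and Cdh5, members differed in proportion. The reads of each member were divided by the summed reads of these 2 junction genes in the same library, a ratio that no scaling can change, and one chosen after the values were seen. Per 100 junction reads, Vwf had 28.4 and 31.5 reads among PBS libraries and 4.19 and 9.25 in AKK, and Cldn5 10.02 and 17.7 against 5.58 and 3.93. Vwf, Cldn5 and Flt4 were below both PBS libraries on this scale, 3 of 25 continuous-vessel members, against 2.16% of all genes. Tie1, Tek, Cd34, Erg, Sox18, Aplnr and Ptprb overlapped. For Tie1 the ratio was 18.9 and 16.3 in PBS and 18.6 and 16.4 in AKK, so it kept its proportion to the junction genes.

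The other 15 continuous-vessel members and 5 of 6 sinusoidal members lay above both PBS libraries per junction read, as 83.0% of all genes did. Eng had 32.8 and 33.7 reads per 100 junction reads among PBS libraries and 79.6 and 86.4 in AKK. Angpt2 had 42.4 and 45.1 against 126 and 79.7, and Robo4 8.82 and 7.17 against 17.2 and 16.3. Fcgr2b stood at 99.3 and 90.9 against 229 and 173. The share of members above is lower than that of all genes and is no result about these members.

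**Figure D4:**
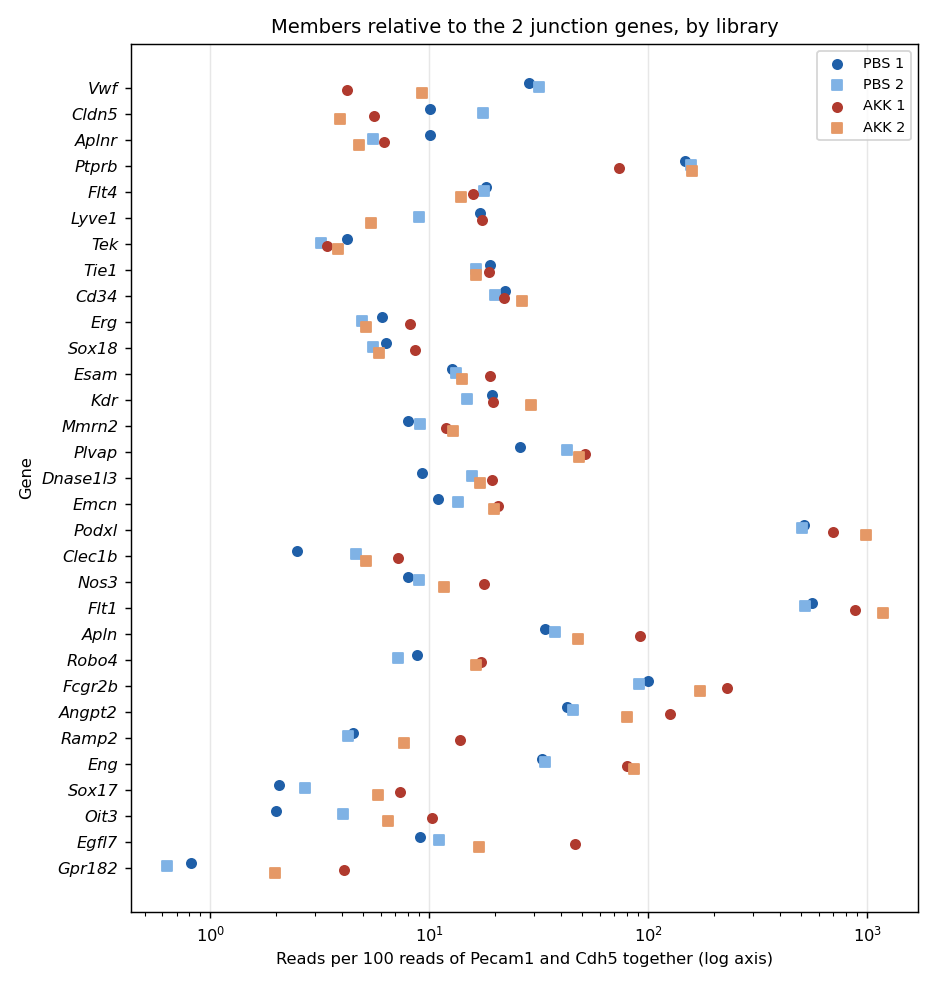
Reads of each member per 100 reads of Pecam1 and Cdh5 together (log axis) in each library, ordered by the change from PBS to AKK. Vwf and Cldn5 at the top are lower in AKK, Tie1 and Cd34 hold a similar proportion in both groups, and Eng, Angpt2 and Fcgr2b are higher.

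The PBS libraries differed from each other in most members. PBS 1 exceeded PBS 2 in 25 of 27 continuous-vessel members, against 49.9% of all genes, with Cldn5 and Plvap as the exceptions. PBS 1 also held all 9 skeletal muscle, all 8 mural cell, all 6 fibroblast, all 7 macrophage and all 6 erythroid markers at higher levels than PBS 2. Of the hepatocyte markers only 1 of 8 was higher in PBS 1, and of the dendritic cell markers 1 of 5. The mural marker Des read 51.7 CPM in PBS 1 and 2.78 CPM in PBS 2, while Acta2 was nearly level (21.7 and 21.5 CPM). Mural cell markers, of the cells that wrap capillaries, summed to 172.8 and 79.1 CPM in PBS and 56.7 and 106 CPM in AKK, and fibroblast markers to 1818 and 608 against 942 and 1396 CPM. Of the muscle markers, 8 of 9 lay below both PBS libraries in AKK, against 24.7% of all genes. Myh4 had 0 reads in both AKK libraries. Myh4, Myh1, Tnnc2 and Actn3 passed the filter through PBS only and could only count as lower. Macrophage markers summed to 386 and 302 CPM in PBS and 208 and 242 CPM in AKK. Of these, 6 of 7 were lower in both AKK libraries, against the same 24.7%. Erythroid markers summed to 19.2 and 13.04 against 11.1 and 4.83 CPM, and mesothelial markers to 217 and 631 against 222 and 233 CPM. Msln alone made up nearly all of the mesothelial sum, at 217 and 631 against 222 and 232 CPM. Of these 4 markers 2 were below the filter, and Wt1 was higher in PBS 1 (0.675 CPM) than in PBS 2 (0.105 CPM). Dendritic cell markers summed to 4.09 and 5.45 against 5.59 and 7.07 CPM, and B cell markers to 0.506 and 0.421 against 3.31 and 0.274 CPM, with Ms4a1 at 0 reads in both PBS libraries. The part of these tissues in the vessel values was not tested.

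Leaving out PBS 1, the library with the highest muscle sum, does not remove muscle transcripts from the PBS group, since PBS 2 still held 9.59 CPM against 3.06 and 3.01 CPM in AKK. Without PBS 1 Vwf was at -3.24 (edgeR adjusted p = 0.0120) and Cldn5 at -2.92 (edgeR adjusted p = 0.0283), and these 2 members were called lower, against 0.698% of genes. Without PBS 2, Vwf was called (-3.64, edgeR adjusted p = 0.0143), against 1.2% of genes. Without AKK 1 or AKK 2, Vwf was at -2.97 and -4.16. In these fits no gene at all was called in either direction, so the absence of called members says nothing about the members. The continuous-vessel median was -0.60 without PBS 1 and -1.21 without PBS 2. The sinusoidal median was 0.02 without PBS 1, so its sign depended on that library.

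**Figure D5:**
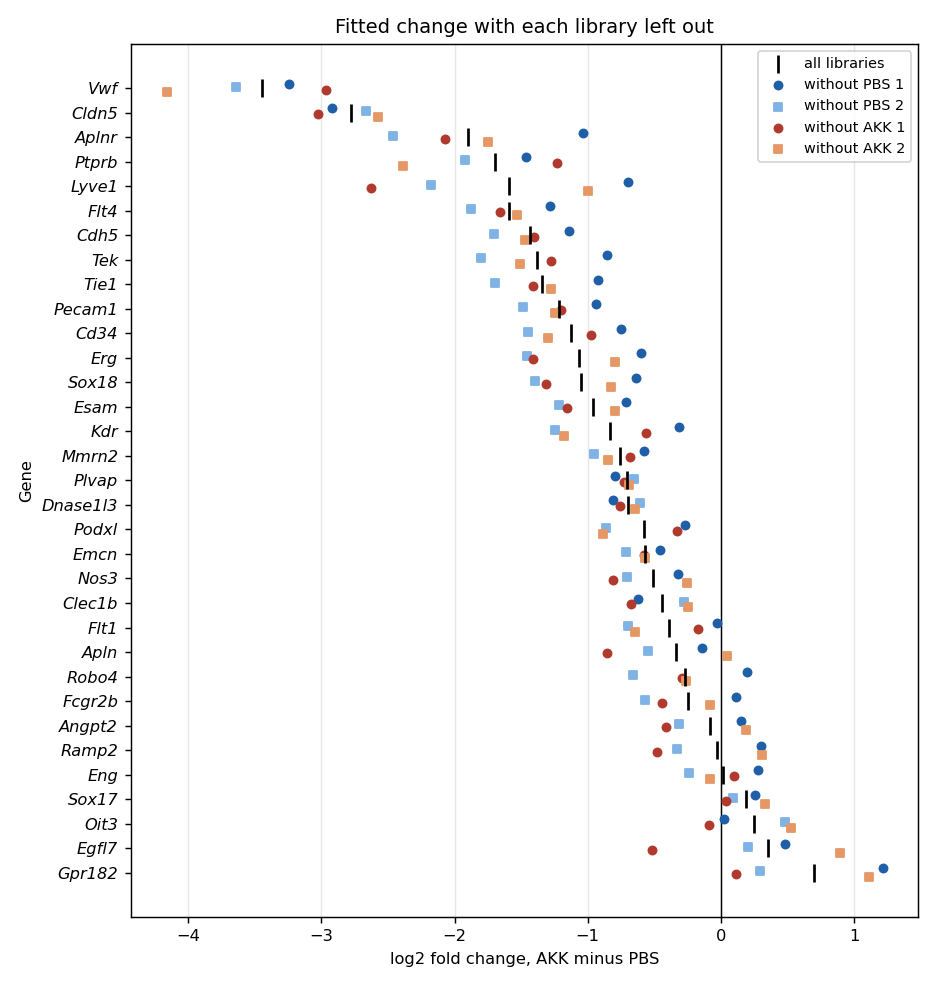
Fitted log2 fold change of the 33 members with all libraries (black bar) and with each library left out (coloured points). Vwf and Cldn5 stay lowest in all 4 fits, points without PBS 1 lie to the right for most genes, and Egfl7, Eng, Ramp2, Angpt2, Robo4, Apln, Fcgr2b and Oit3 have points on both sides of 0.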

How the data were processed

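Raw read counts per gene were used as deposited, in tables laid out as STAR writes them. STAR 2.5.2 and RSEM 1.2.31 appear in the submitters' processing notes; build and annotation: not given in the sources used here. Counts on the sense strand, 95.4 to 96.2% of strand-assigned reads, were used. The 4 summary rows (unmapped 8.97 to 12.3%, multimapping 4.20 to 6.66%, outside genes 11.4 to 13.5%, ambiguous 1.18 to 1.37%) were left out. Such counting drops reads of near-identical copies. Symbols were matched by identifier without version for 48058 of 48526 genes.

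The main test was edgeR 4.0.16's quasi-likelihood test (R 4.3.3, legacy form, two-sided, TMM, filterByExpr, group only, prior count 0.125) over 17479 genes, with Benjamini-Hochberg adjustment at 0.05; SEs come from its F statistic. The fit was also run on simulated counts with a shared spread for all genes and large changes. That run cannot show how the test performs for these members. DESeq2 1.42.0 (17140 genes with an adjusted p) and limma-voom (limma 3.58.1) were alternatives, beside other scalings, filters, unstranded counts, a replicate block and leaving out each library, where the lone library was assumed to vary like the others. Exon lengths are merged exons of GENCODE M21. Members and lists were chosen with earlier results of these data known. All members are named; from each further list, the 2 genes with the smallest p are, since none passed. Other genes were chosen after their values were seen.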

Additional observations from a re-analysis of the deposited data

How the results depend on the processing

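The number of continuous-vessel members called lower was 0 with all scalings, with a filter of 1 CPM in 2 libraries, with unstranded counts, in limma-voom, in the edgeR 4 form and at a threshold of 0.1, but 8 in DESeq2 and 5 without a filter on low counts (Pecam1, Cdh5, Cldn5, Ptprb and Vwf), and 0 to 2 with a library left out. With the replicate number as a block 1 member, Vwf, was called (-3.53, edgeR adjusted p = 0.0278). Over all genes, 3.04% were called lower in DESeq2, 340 genes without a filter and 81 of 17479 with the block. The replicate numbers do not show a pairing (r = -0.02 between the deviations of PBS 1 and AKK 1 from their group means, over 17479 genes). No sinusoidal member was called in any of these alternatives, in either direction, and no continuous-vessel member was called higher. Over all genes, 1 higher and 0 lower calls became 3 higher with upper-quartile scaling, 3 higher at a threshold of 0.1, 4 higher in the edgeR 4 form, 0 in limma-voom, 291 higher and 340 lower without a filter, 128 higher and 81 lower with the block, 357 higher and 521 lower in DESeq2, and 0 to 149 higher and 0 to 225 lower with a library left out. The continuous-vessel median ranged from -1.21 to -0.60 and the sinusoidal median from -0.56 to 0.0244 with a library left out. Of 33 members, 25 had 1 direction in all alternatives. The others turned with a library left out, over ranges of -0.41 to 0.19 (Angpt2), -0.85 to 0.0429 (Apln), -0.24 to 0.28 (Eng), -0.66 to 0.20 (Robo4), -0.52 to 0.89 (Egfl7), -0.48 to 0.31 (Ramp2), -0.0878 to 0.53 (Oit3) and -0.57 to 0.11 (Fcgr2b). Eng was also -0.0018 with the size factors of DESeq2 and -0.0020 in DESeq2, and Ramp2 0.0381 with upper-quartile scaling. Causes were not tested. Gpr182, Clec4g, Prox1os and Stab2 in PBS rest on few reads.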
